A study of Homo sapiens with 12 samples.

Results

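The keratin genes comprised every row of the deposited table whose symbol is KRT followed by a number and at most 1 of the letters A to C, which left out the keratin-associated proteins, the pseudogenes and older symbols. The rule used names only and found 55 genes among 34595 rows with values. Expression was measured on 12 Illumina HT-12 v3 BeadChips, 2 for each of 6 populations, which were the CD133+ and the CD133- cells of the human gastric cancer lines KATO-III, SNU-216 and SNU-601. The labels give no treatment and no genetic change to any population, and all were cultured alike and sorted with an antibody to CD133, the membrane protein encoded by PROM1. The CD133+ gate took the brightest 10% of cells and the CD133- gate the dimmest 6%, so that the cells between the gates were not measured. The description of the series names SNU201 where the array labels name SNU-216, and the label was used. Whether the 2 arrays of a population came from separate sorts is not stated, and the p-values within and between lines measure only the spread between these arrays. In the fit over all lines together, unlike CD133 changes between lines also add to the error.

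Keratins are the intermediate filament proteins of epithelial cells. A type I keratin pairs with a type II keratin to form the filament, and the pair in use marks the kind of epithelium. Simple keratins (KRT8 and KRT18, with KRT7, KRT19 and KRT20) belong to single-layered epithelium such as the glandular stomach, in which KRT20 marks the differentiated surface cells. Squamous keratins belong to layered epithelium such as epidermis and oesophagus, where KRT5 and KRT14 mark the basal layer, KRT1 and KRT10 the upper layers of epidermis, KRT4 and KRT13 the upper layers of internal linings, and KRT6, KRT16 and KRT17 wounded or rapidly dividing epithelium. Hair keratins (KRT31 to KRT40 and KRT81 to KRT86) build the hair shaft and the nail, and a further group builds the sheaths around the hair root. By these textbook classes the 55 genes held 5 simple, 21 squamous, 9 root sheath and companion layer and 17 hair keratins, 2 other epithelial keratins (KRT23 and KRT80), and KRT222, which was left unclassified.

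Values are linear intensities that were quantile-normalized when deposited, and 32.1% of them are at or below 0, as after background subtraction. Intensities under 32.7, the magnitude of the 1st percentile of the whole table, were set to that floor before log2 was taken, and the genes tested were those with 2 or more arrays over the floor (20147 rows, 58.2%). Tests were limma fits over all these rows with Benjamini-Hochberg adjusted p-values, and a gene is said to have risen, fallen or differed where the adjusted p was under 0.05. Changes between fractions are log2 differences of CD133+ minus CD133- cells, with the standard error (SE) in the same unit. A difference against arrays at the floor is a lower bound, and intensities were compared within a gene only. Between 16320 and 16474 rows lay above the floor on an array, and the 2 arrays of a population correlated at 0.993 to 0.995 over all rows. PROM1 was higher on both CD133+ arrays than on both CD133- arrays of every line (log2 1.10, 2.02 and 1.86 in KATO-III, SNU-216 and SNU-601), and 7 of 7 rows for epithelial markers lay above the floor on all 12 arrays.

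All 55 genes were placed by RefSeq on GRCh38.p14, 27 on chromosome 12 and 28 on chromosome 17, where they lie in dense clusters, the type II keratins and KRT18 on the former and the other type I keratins on the latter. For 34 of them the RefSeq promoter table held a sequence (38 entries). The letters ATAA, a part of the TATA box motif TATAAA, lay between 40 and 21 bases before the start on the gene's strand in 31 of 38 keratin promoters (81.6%), against 7.91% of 35116 promoters of all genes. The full TATAAA lay in the last 100 bases before the start, on either strand, in 18 of 38 (47.4%), against 4.99% of all. The 100 bases before the start are shown for 4 keratins with such a match whose level differed between the KATO-III fractions, namely KRT4, KRT20 and KRT10, which were lower in CD133+ cells, and KRT75, which was higher. They are KRT4 at chr12:52814117-52814216, KRT20 at chr17:40885243-40885342, KRT10 at chr17:40822615-40822714 and KRT75 at chr12:52434372-52434471, all on the minus strand, written 5′ to 3′ with the match in capitals.
KRT4: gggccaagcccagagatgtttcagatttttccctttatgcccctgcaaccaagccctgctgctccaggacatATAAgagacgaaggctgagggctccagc
KRT20: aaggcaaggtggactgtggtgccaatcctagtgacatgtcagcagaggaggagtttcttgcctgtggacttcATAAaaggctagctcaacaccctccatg
KRT10: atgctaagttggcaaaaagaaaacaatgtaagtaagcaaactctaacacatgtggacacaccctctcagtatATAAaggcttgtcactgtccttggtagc
KRT75: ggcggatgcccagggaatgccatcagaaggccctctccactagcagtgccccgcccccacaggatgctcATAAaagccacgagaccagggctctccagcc
The match begins 28 bases before the start in KRT4, KRT20 and KRT10 and 31 bases before it in KRT75. It stands within TATAAA in KRT10 only, within TATAAG in KRT4 and within CATAAA in KRT20 and KRT75. The 4 keratins were chosen for the ATAA match, which is a description of the sequence, not a measured site.

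Of the 55 keratins, 11 lay above the floor on all 12 arrays and 25 on none, and 27 (49.1%) were tested. The 11 were the simple keratins KRT7, KRT8, KRT18 and KRT19, the squamous keratins KRT10, KRT13, KRT15 and KRT17, the other epithelial keratins KRT23 and KRT80, and the hair keratin KRT86. The 25 keratins at or under the floor ranged from -35.2 to 30.6, with a median of -13. Among them were 8 of 21 squamous keratins, namely KRT1 and KRT2 of the upper epidermis, the basal keratin KRT5, the corneal keratins KRT3 and KRT12, and KRT76, KRT77 and KRT79. Also at or under it throughout were 6 of 9 root sheath keratins (KRT26, KRT27, KRT28, KRT71, KRT72 and KRT74), 10 of 17 hair keratins (KRT32, KRT33A, KRT33B, KRT35, KRT38, KRT39, KRT40, KRT82, KRT84 and KRT85) and KRT222. A single array was above the floor for KRT25, KRT36 and KRT78. A value under the floor says that no signal was detectable above background, not that the RNA was absent. KRT14, the basal partner of KRT5, was above the floor only on the SNU-601 CD133+ arrays (52.3 and 56). In gene order, keratins that were measured lay beside keratins at the floor. On chromosome 12, KRT6B, KRT6C and KRT6A are followed by KRT5, whereas the partners KRT8 and KRT18 are neighbours and were both measured throughout.

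**Figure D1:**
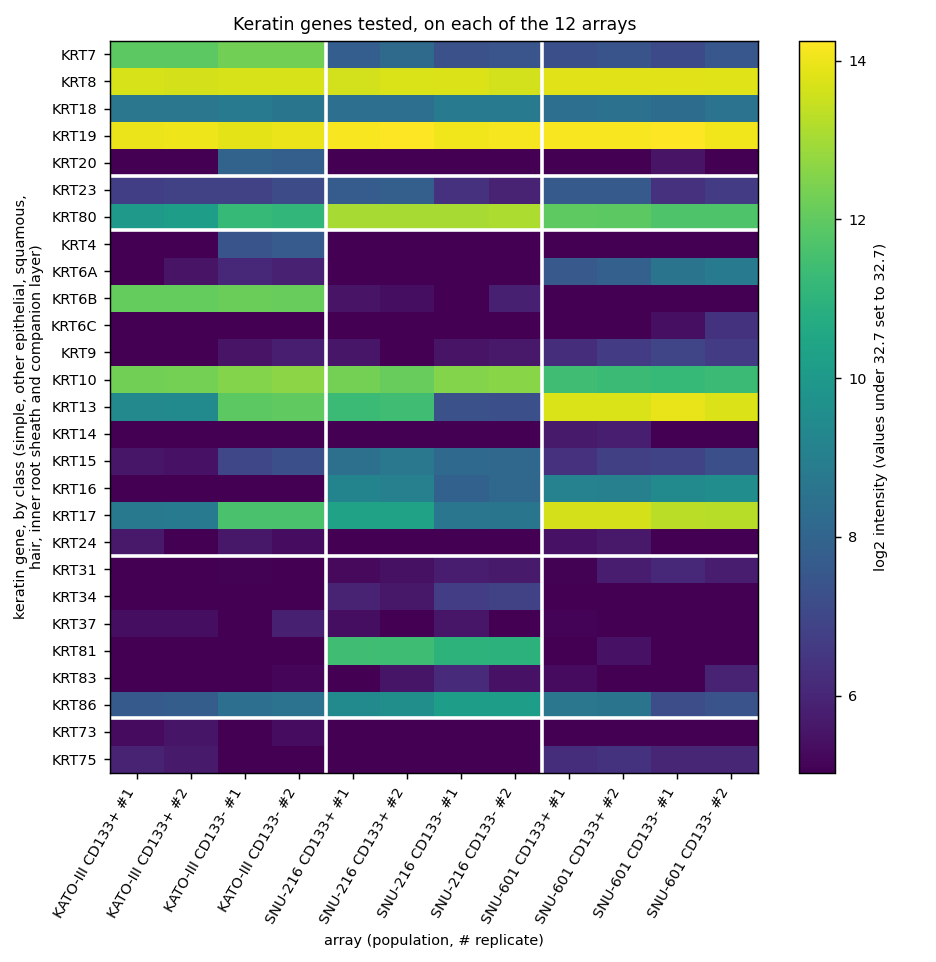
Log2 intensity of the 27 tested keratins (rows, by class) on the 12 arrays (columns, by line and CD133 fraction), with values under the floor of 32.7 drawn at the floor. KRT8 and KRT19 change little across the columns (12489 to 14773 and 14988 to 19508), whereas KRT6B is high in KATO-III columns alone and KRT81 in SNU-216 columns alone.

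**Figure D2:**
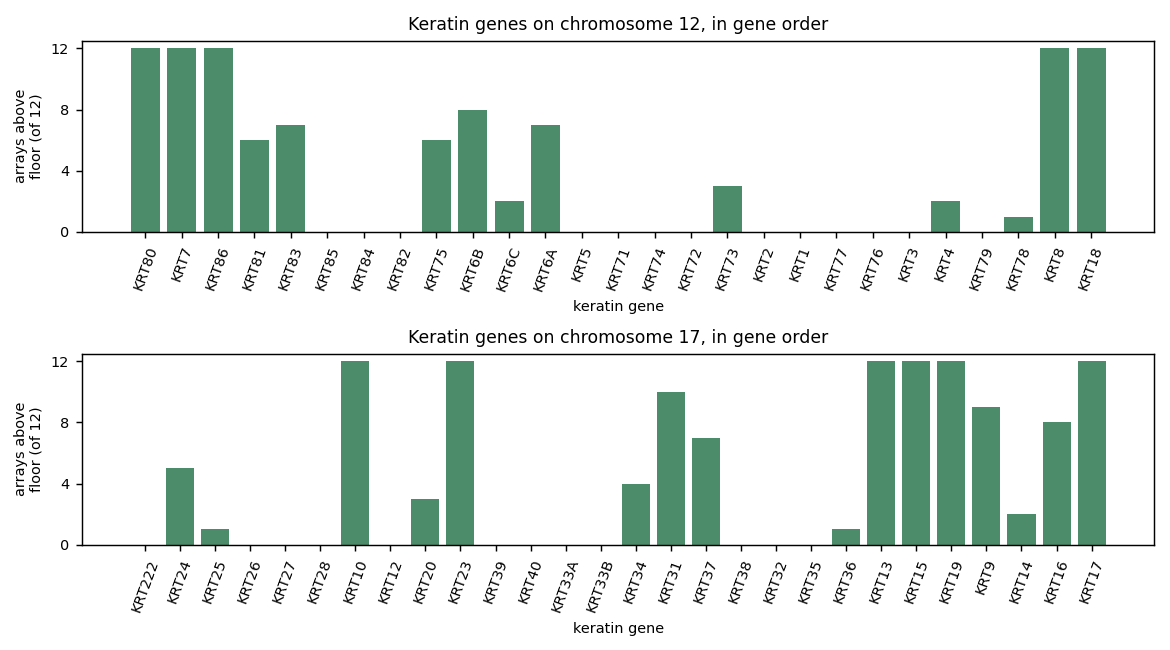
Number of arrays (0 to 12, vertical axis) on which each of the 55 keratins lay above the floor, in gene order along the clusters of chromosome 12 and chromosome 17; distances are not to scale. The clusters hold 13 and 12 keratins that were above the floor on no array.

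KRT7, KRT8, KRT18 and KRT19 were measured in all 3 lines, and no difference of KRT8 or KRT19 between CD133 fractions passed the test in any line. KRT8, the type II keratin of simple epithelium, was 13386 and 12895 on the CD133+ arrays and 13265 and 13409.9 on the CD133- arrays in KATO-III. In SNU-216 it was 12615 and 13751 on the CD133+ arrays and 13889 and 12489 on the CD133- arrays, and in SNU-601 14524 and 14773 on the CD133+ arrays and 14630.2 and 14304 on the CD133- arrays. The fractions overlapped in every line, and the log2 change of KRT8 was -0.02 in KATO-III (95% interval -0.16 to 0.11), 0.00 in SNU-216 (-0.14 to 0.14) and 0.02 in SNU-601 (-0.12 to 0.15). KRT19, the smallest type I keratin, was 16329 and 16768 on the CD133+ arrays and 14988 and 16168 on the CD133- arrays in KATO-III. It was 18442 and 19402 on the CD133+ arrays and 17099 and 17896 on the CD133- arrays in SNU-216 and 18205 and 18549 on the CD133+ arrays and 19508 and 16798 on the CD133- arrays in SNU-601. All 12 KRT19 values were near the top of the scale, whose highest value was 23390, and the KRT8 values also lay high on it. The part of a ceiling in the evenness of both genes was not tested. The fractions of KRT19 overlapped in SNU-601 only. Its log2 change was 0.09 (-0.07 to 0.25), 0.11 (-0.05 to 0.28) and 0.02 (-0.14 to 0.18) in KATO-III, SNU-216 and SNU-601. Between lines, KRT8 was higher in SNU-601 than in KATO-III by 0.14 on the log2 scale (adjusted p = 0.0199), and than in SNU-216 by the same amount (adjusted p = 0.0156). These calls were lost in 4 and 3 of 12 fits that left out 1 array, and with arrays centred on their medians (adjusted p = 0.0523 and 0.0826). KRT19 was higher than in KATO-III by 0.18 in SNU-216 and 0.18 in SNU-601 (adjusted p = 0.0118 and 0.0114).

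KRT18, the type I partner of KRT8, ranged from 312 to 448 over the 12 arrays. In KATO-III it was 416 and 414 on the CD133+ arrays and 448 and 391 on the CD133- arrays and in SNU-601 335 and 352 on the CD133+ arrays and 312 and 374 on the CD133- arrays, with fractions that overlapped in both lines. In SNU-216 it was 340.2 and 336 on the CD133+ arrays and 447 and 439 on the CD133- arrays, a log2 change of -0.39 (SE 0.0996, adjusted p = 0.0176), which lost its call when any 1 of the 4 SNU-216 arrays was left out (adjusted p = 0.0635 to 0.0774). A separate row carrying the pseudogene symbol KRT18P13 lay between 6116 and 7146 on all 12 arrays. Which probes stand behind each row is not stated, and cross-hybridization between the gene and its processed copies was not tested. KRT20 was above the floor on both KATO-III CD133- arrays and on 1 SNU-601 CD133- array. It was 13.6 and 25 on the CD133+ arrays and 248 and 229 on the CD133- arrays in KATO-III, so that the CD133+ cells were at least 7.29-fold lower (adjusted p = 2.34e-06). KRT20 passed the filter only through CD133- arrays, so that its p-value is no independent support for a change.

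KATO-III stood out among the lines by KRT6B and KRT7, SNU-216 by KRT81 and KRT80, and SNU-601 by KRT13 and KRT17. Of 27 keratins, 18 (66.7%) differed between SNU-216 and KATO-III, 19 (70.4%) between SNU-601 and KATO-III and 16 (59.3%) between SNU-216 and SNU-601, with each line taken as the mean of its fractions. Over all tested rows the shares were 62.0%, 58.6% and 56.5%, and the counts are no result about keratins as a group. In all 3 pairs 9 keratins differed (KRT6A, KRT6B, KRT7, KRT13, KRT15, KRT16, KRT17, KRT75 and KRT80), and in none did KRT6C, KRT23, KRT37 and KRT83. The shares of all rows that differed in all 3 pairs or in none were not counted, so these lists describe single genes only. The calls of KRT6B and KRT7 between SNU-216 and SNU-601 were lost in 10 and 6 of 12 fits that left out 1 array (adjusted p = 0.0607 to 0.107 and 0.0515 to 0.0862).

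KRT6B, a keratin of wounded and dividing squamous epithelium, was 4277 and 4332 on the CD133+ arrays and 4641 and 4402 on the CD133- arrays in KATO-III. In SNU-216 it was 45.4 and 41.3 on the CD133+ arrays and 33.5 and 57.1 on the CD133- arrays, and in SNU-601 it was under the floor on all 4 arrays (22.8 and 5.86 on the CD133+ arrays and 25.7 and 19.2 on the CD133- arrays). KATO-III was therefore 101-fold above SNU-216 and at least 135-fold above SNU-601 (adjusted p = 2.91e-10 and 4.05e-10). KRT6A, its near-identical neighbour, had another order: it was 196 and 233 on the CD133+ arrays and 384 and 445 on the CD133- arrays in SNU-601, 21.6 and 45.5 on the CD133+ arrays and 66.4 and 59.5 on the CD133- arrays in KATO-III and under the floor on all 4 SNU-216 arrays (-21.9 and -7.22 on the CD133+ arrays and -6.52 and -11 on the CD133- arrays). SNU-601 was at least 9.09-fold above SNU-216 in KRT6A. Signal shared between KRT6A, KRT6B and KRT6C through like sequence was not tested. KRT7, a type II keratin of ducts and glands, was 3925 and 3891 on the CD133+ arrays and 4951 and 5028 on the CD133- arrays in KATO-III. It was 219.5 and 295 on the CD133+ arrays and 161 and 175 on the CD133- arrays in SNU-216 and 154 and 173 on the CD133+ arrays and 137 and 185 on the CD133- arrays in SNU-601, which left KATO-III 21.4-fold and 27.4-fold higher (adjusted p = 8.97e-10 and 1.03e-09). Between the KATO-III fractions the arrays of KRT7 did not overlap, but the change of -0.35 (SE 0.161, adjusted p = 0.121) did not pass the test.

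SNU-216 was marked by the hair keratin KRT81, which was 2734 and 2692 on the CD133+ arrays and 2043 and 1975 on the CD133- arrays. KATO-III lay under the floor on all 4 arrays (9.77 and 18.3 on the CD133+ arrays and 21.7 and 9.49 on the CD133- arrays), and SNU-601 was above it only on the CD133+ arrays (33.5 and 44.9 against 29.8 and -0.895 in CD133-). SNU-216 was at least 71.4-fold above KATO-III and 65.6-fold above SNU-601 (adjusted p = 3.49e-11 and 4.02e-11). KRT16, a type I partner of the KRT6 keratins, was under the floor on the 4 KATO-III arrays (13.4 and -18.2 on the CD133+ arrays and 27.1 and 21.2 on the CD133- arrays). SNU-216 and SNU-601 were at least 11.6-fold and 19.1-fold above it. KRT6B was thus highest in the line where KRT16 was not detectable, but KRT17, of the same kind of epithelium, was 431 to 3119 there. KRT6A and KRT16 both had their highest line mean in SNU-601 (314 and 629.8). Which of these keratins pair in the cells was not tested. SNU-601 had the highest KRT13 and KRT17 of the lines, 21.8-fold and 15.9-fold above SNU-216 and 8.62-fold and 9.61-fold above KATO-III. KRT80, a type II keratin found in many epithelia, was highest in SNU-216, 5.47-fold above KATO-III and 2.36-fold above SNU-601.

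**Figure D3:**
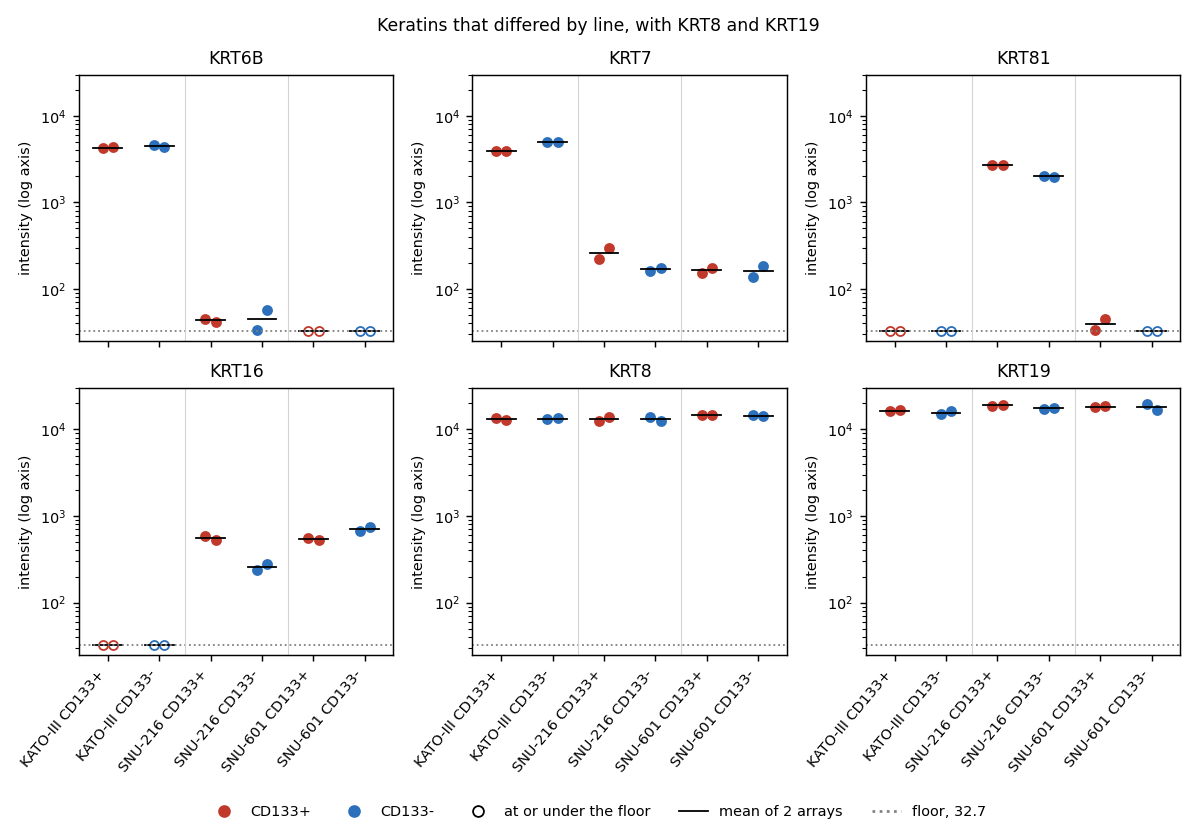
Intensity (log axis) of KRT6B, KRT7, KRT81, KRT16, KRT8 and KRT19 on each array of the 6 populations (red, CD133+; blue, CD133-). Black bars are means of 2 arrays, the dotted line is the floor of 32.7, and open circles are arrays at or under it; KRT6B and KRT7 are high in KATO-III, KRT81 in SNU-216, and KRT8 and KRT19 span 12489 to 14773 and 14988 to 19508.

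In KATO-III, 10 of 27 keratins (37.0%) fell in CD133+ cells and 1 (3.70%), KRT75, rose. Over all tested rows 20.6% fell and 18.7% rose, and in either direction the 40.7% of keratins called was close to the 39.3% of all rows. Those that fell were 7 squamous keratins (KRT4, KRT6A, KRT9, KRT10, KRT13, KRT15 and KRT17), the simple keratin KRT20, KRT80 and KRT86. KRT4 and KRT20 passed the filter only through CD133- arrays. The count therefore describes the genes listed and supports no statement on keratins as a group. The median change was -0.07 over the 27 keratins and 0.00 over all rows. These were sorted cells measured in bulk, in which fewer expressing cells and less RNA per cell cannot be told apart.

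KRT17, a type I keratin of wounded and dividing epithelium, had the largest fall among the keratins above the floor in both fractions. It was 431 and 470.4 on the CD133+ arrays and 3103 and 3119 on the CD133- arrays, a log2 change of -2.79 (SE 0.047, adjusted p = 9.95e-09). KRT13, the type I keratin of internal squamous linings, was 657 and 689.6 on the CD133+ arrays and 3918 and 4099 on the CD133- arrays, a change of -2.57 (SE 0.0649, adjusted p = 8.32e-08). Both genes therefore stood 6.91-fold and 5.95-fold lower in CD133+ cells, with no overlap of arrays. KRT4, the type II partner of KRT13, was above the floor only on the KATO-III CD133- arrays. It was 29.6 and 31.2 on the CD133+ arrays and 171 and 206 on the CD133- arrays, at least 5.74-fold lower in CD133+ cells (adjusted p = 1.36e-06). KRT4 passed the filter only through these CD133- arrays, so that its p-value is no independent support for a change. KRT15, a basal keratin, was 48.7 and 44.7 on the CD133+ arrays and 126 and 154 on the CD133- arrays (log2 change -1.58, SE 0.193, adjusted p = 0.000227). KRT10, the type I partner of KRT1, was 5055 and 5129.8 on the CD133+ arrays and 5939 and 6473 on the CD133- arrays (log2 change -0.28, SE 0.0784, adjusted p = 0.0186), and this call was lost in 3 of 12 fits that left out 1 array, namely CD133+ replicate 1, CD133+ replicate 2 or CD133- replicate 2 of KATO-III (adjusted p = 0.076 to 0.126). KRT75, of the companion layer of the hair follicle, was 60.2 and 51.4 on the CD133+ arrays and 16.2 and 18.1 on the CD133- arrays, at least 1.7-fold higher in CD133+ cells (adjusted p = 0.000836). KRT6A (21.6 and 45.5 against 66.4 and 59.5) and KRT9 (-2.22 and 20.2 against 46 and 56.4, CD133+ against CD133-) lay near the floor and lost their calls in 2 and 8 of the 12 fits that left out 1 array, and with a floor of 100, where both changes were 0.00.

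In SNU-216, 6 of 27 keratins (22.2%) rose in CD133+ cells and 4 (14.8%) fell, against 14.6% and 14.0% of all tested rows. The 37.0% called in either direction compares with 28.6% of all rows. Those that rose were KRT7, KRT13, KRT16, KRT17, KRT23 and KRT81, and those that fell KRT10, KRT18, KRT34 and KRT86. KRT13 was 2539 and 2751 on the CD133+ arrays and 161 and 157 on the CD133- arrays, a log2 change of 4.05 (SE 0.0649, adjusted p = 1.49e-08) or 16.6-fold. KRT17 was 1298 and 1292 on the CD133+ arrays and 399.5 and 390.3 on the CD133- arrays, a change of 1.71 (SE 0.047, adjusted p = 2.58e-07). KRT16 was 586 and 528 on the CD133+ arrays and 238 and 281 on the CD133- arrays, a change of 1.10 (SE 0.113, adjusted p = 0.000167). The 3 squamous genes were each higher on both CD133+ arrays than on both CD133- arrays, and all are type I keratins. KRT23, a type I keratin known from pancreatic cancer cells, was 211 and 226 on the CD133+ arrays and 81.2 and 61.4 on the CD133- arrays (log2 change 1.63, SE 0.183, adjusted p = 0.000271). KRT34, a hair keratin measured in SNU-216 alone, was 61.4 and 49.7 on the CD133+ arrays and 105 and 114 on the CD133- arrays (log2 change -0.99, SE 0.125, adjusted p = 0.000476). With a floor of 100 its change was -0.13 (adjusted p = 0.0579), and with an offset of 100 in place of a floor -0.43 (0.0649). Some smaller changes depended on single arrays: KRT7 (log2 change 0.60, SE 0.161, adjusted p = 0.0218) and KRT81 (log2 change 0.43, SE 0.139, adjusted p = 0.0459) lost their calls in 5 and 10 of 12 fits that left out 1 array, and KRT10 (log2 change -0.36, SE 0.0784, adjusted p = 0.00871) in 2 (without SNU-216 CD133+ replicate 2 or CD133- replicate 2). The adjusted p of KRT81 ran from 0.0584 to 0.155 in the fits that lost it, and that of KRT7 from 0.052 to 0.15. KRT15 was 343 and 423 on the CD133+ arrays and 288 and 283 on the CD133- arrays and did not pass the test (log2 change 0.41, SE 0.193, adjusted p = 0.157).

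In SNU-601, 5 of 27 keratins (18.5%) rose in CD133+ cells and 1 (3.70%) fell, against 8.59% and 7.78% of all tested rows. In either direction the shares were 22.2% of the keratins and 16.4% of all rows. KRT86, a type II hair keratin, was 414 and 383 on the CD133+ arrays and 148 and 166 on the CD133- arrays, a log2 change of 1.35 (SE 0.0927, adjusted p = 0.000117). KRT23 was 200.1 and 199.5 on the CD133+ arrays and 81.5 and 103 on the CD133- arrays, a change of 1.13 (SE 0.183, adjusted p = 0.00413). KRT17 was 13053 and 13047 on the CD133+ arrays and 10044 and 9768 on the CD133- arrays, a change of 0.40 (SE 0.047, adjusted p = 0.00103). The arrays of the fractions did not overlap for these genes, and the change of KRT17 was the smallest of the 3. KRT14 rose from under the floor (23.8 and 2.61 in CD133- cells), at least 1.66-fold (adjusted p = 0.00138). It passed the filter only through the SNU-601 CD133+ arrays, and every other array was set to the floor. The p-value of KRT14 and its place among the 5 that rose are therefore no independent support for a change. KRT80 was 4007 and 3916 on the CD133+ arrays and 3378 and 3365 on the CD133- arrays (log2 change 0.23, SE 0.0513, adjusted p = 0.016), a call lost when any 1 of the 4 SNU-601 arrays was left out (adjusted p = 0.0515 to 0.0801). KRT6A was the gene that fell, at 196 and 233 on the CD133+ arrays and 384 and 445 on the CD133- arrays (log2 change -0.95, SE 0.178, adjusted p = 0.0077), and it lost its call without CD133+ replicate 1 (adjusted p = 0.0506). KRT13 was 13559.6 and 13609 on the CD133+ arrays and 15688 and 13899 on the CD133- arrays, and its change of -0.12 (SE 0.0649, adjusted p = 0.275) did not pass the test. KRT16 was 563 and 533 on the CD133+ arrays and 673 and 751 on the CD133- arrays and did not pass it either (log2 change -0.38, SE 0.113, adjusted p = 0.0553). The SNU-601 values of KRT13 and KRT17 lay high on the scale, whose highest value was 23390. The part of a ceiling in their small changes was not tested.

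**Figure D4:**
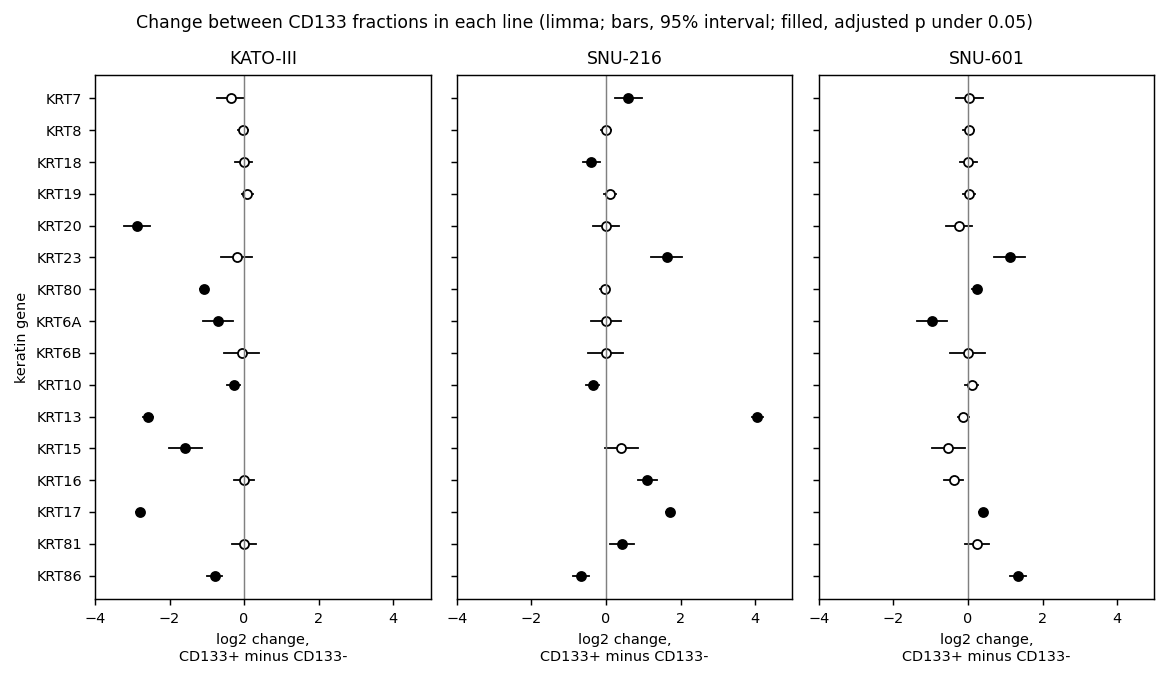
Log2 change of CD133+ minus CD133- cells (horizontal axis) of the 16 keratins with the highest levels or calls, in each line, with 95% intervals; filled symbols have an adjusted p under 0.05 and open ones do not. KRT13 and KRT17 lie far to the left in KATO-III and to the right in SNU-216, and the intervals of KRT8 and KRT19 include 0 in every line.

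KRT13 and KRT17 changed in opposite directions in KATO-III and SNU-216, and 15 of 27 keratins (55.6%) differed between lines in their CD133 change by the test of that difference, an F-test of the interaction, against 44.4% of all tested rows. A gene with every array of a line at or under the floor has a change of 0.00 there by construction. This was so for KRT4 in SNU-216 and SNU-601, KRT14 in KATO-III and SNU-216, and KRT34 in KATO-III and SNU-601. It was also so for KRT20, KRT75 and KRT6A in SNU-216 and KRT16 in KATO-III. For these genes the test cannot tell an unlike change from a lack of signal in those lines. Arrays set to the floor also add no spread to its error. Opposite calls in at least 1 pair of lines were made for KRT13, KRT17, KRT80 and KRT86, which is 14.8% of the keratins and compares with 10.9% of all rows. KRT13 fell by 2.57 in KATO-III and rose by 4.05 in SNU-216 (interaction adjusted p = 1.11e-08). KRT17 fell by 2.79, rose by 1.71 and rose by 0.40 in KATO-III, SNU-216 and SNU-601 (interaction adjusted p = 1.11e-08). The levels from which they changed also differed, for the SNU-601 values of both genes lay above every array of the other lines. KRT80 was 1041 and 1137 on the CD133+ arrays and 2349 and 2227 on the CD133- arrays in KATO-III, a change of -1.07 (SE 0.0513, adjusted p = 1.52e-06). In SNU-216 it was 8501 and 8529 on the CD133+ arrays and 8556 and 8968 on the CD133- arrays (log2 change -0.04, SE 0.0513, adjusted p = 0.666), and its rise in SNU-601 was the call that single arrays removed. KRT86 was 200.4 and 213 on the CD133+ arrays and 339 and 375 on the CD133- arrays in KATO-III (log2 change -0.79, SE 0.0927, adjusted p = 0.000183) and 698 and 774 on the CD133+ arrays and 1187 and 1151 on the CD133- arrays in SNU-216 (log2 change -0.67, SE 0.0927, adjusted p = 0.000795), and it rose in SNU-601.

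A separate row under KRTHB6, an older symbol of KRT86, had other values. It was 53.9 and 35.4 on the CD133+ arrays and 7.02 and 6.6 on the CD133- arrays in KATO-III, 45.9 and 38 on the CD133+ arrays and 80.9 and 76.8 on the CD133- arrays in SNU-216 and 6.09 and 17.6 on the CD133+ arrays and 7.28 and 28 on the CD133- arrays in SNU-601. The KRTHB6 row fell in SNU-216 CD133+ cells (log2 -0.92, adjusted p = 0.00593) as the KRT86 row did, while in KATO-III its change of 0.42 did not pass the test (adjusted p = 0.114) and had the opposite sign. In SNU-601 the KRTHB6 row was under the floor on all 4 arrays. KRT86 also lies beside KRT81 and KRT83, which are close copies, and signal shared among these rows was not tested. The fall of KRT86 in KATO-III and its rise in SNU-601 therefore each rest on 1 of 2 rows that carry its names.

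**Figure D5:**
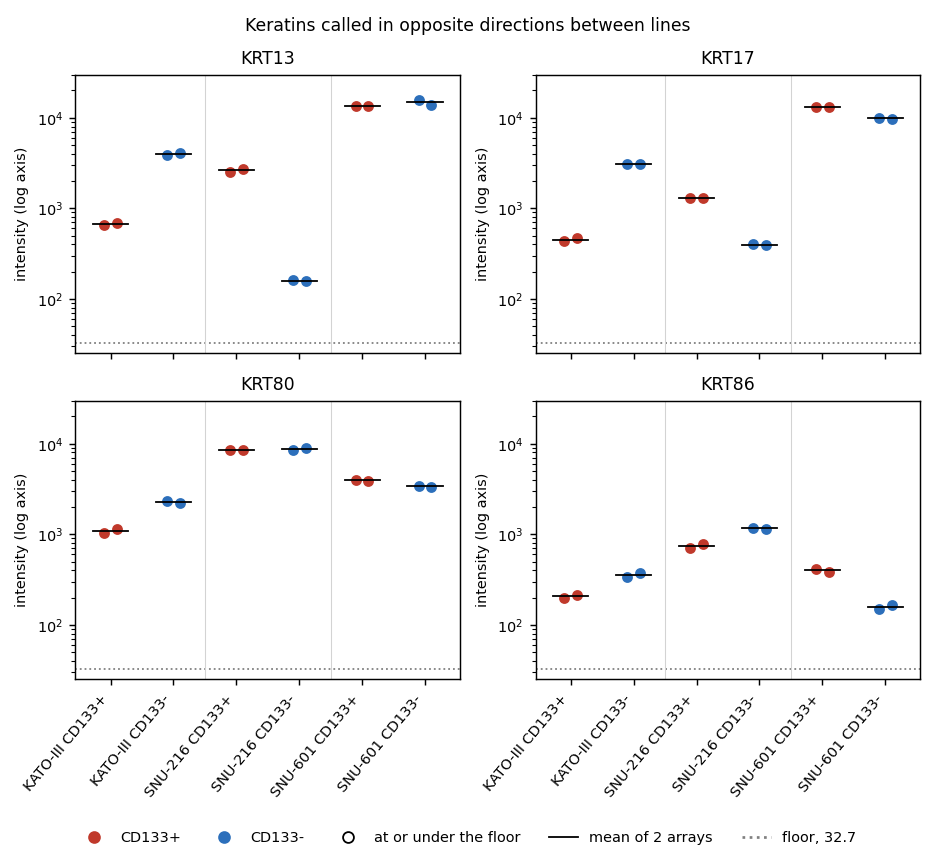
Intensity (log axis) of KRT13, KRT17, KRT80 and KRT86, which were called in opposite directions between lines, on each array of the 6 populations (red, CD133+; blue, CD133-). Black bars are means of 2 arrays, the dotted line is the floor of 32.7, which no array of these genes reached; KRT13 and KRT17 are lower in CD133+ cells of KATO-III and higher in CD133+ cells of SNU-216.

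LUM, 1 of the markers of other cell types, moved with KRT13 and KRT17 in KATO-III and SNU-216. Of 11 markers of fibroblasts, leukocytes and endothelium, 7 were above the floor on no array (COL3A1, DCN, PTPRC, CD3E, PECAM1, CDH5 and VWF), COL1A2 was above it on 1, and 3 were tested. The summed intensity of the 11 was 905 to 933 on the KATO-III CD133+ arrays and 1968 to 2056 on the CD133- arrays. Most of it was CD14, at 856 and 835 on the CD133+ arrays and 1202 and 1242 on the CD133- arrays, with LUM next. In SNU-216 the sums were 43.7 to 80.2 in CD133+ and -7.65 to 18.6 in CD133- cells, and in SNU-601 98.7 to 108 and 81.6 to 173. LUM, an extracellular matrix proteoglycan, was 64.4 and 91.6 on the CD133+ arrays and 743 and 783 on the CD133- arrays in KATO-III (log2 -3.31, adjusted p = 1.73e-06). In SNU-216 it was 60.8 and 61.3 on the CD133+ arrays and -8.68 and -3.65 on the CD133- arrays (log2 0.90, adjusted p = 0.00323), so that it had the directions of KRT13 and KRT17 in both lines. In SNU-601, where KRT17 rose, LUM was under the floor throughout (-15.8 and -9.52 on the CD133+ arrays and -8.59 and -9.75 on the CD133- arrays). CD14 was lower in KATO-III CD133+ cells (log2 -0.53, adjusted p = 0.00609), and COL1A1 was higher there (0.84, 0.00977). The part of these markers in the keratin changes was not tested.

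Over all lines together, 0 of 27 keratins differed between the fractions in a limma fit with the line as a covariate, against 4.73% of all tested rows. At an unadjusted p under 0.05 there were 7 (KRT4, KRT6A, KRT9, KRT10, KRT20, KRT23 and KRT75), against 24.5% of all rows. The lowest adjusted p was that of KRT6A (-0.55, SE 0.163, adjusted p = 0.0727). This fit had no term for unlike changes between lines, which therefore widened its error. The SE of KRT13 was 0.813 and that of KRT17 0.563, against 0.0649 and 0.047 within a line. KRT6A and KRT10 fell and KRT23 rose in 2 lines each, and no keratin changed in 1 direction in all 3. A keratin with a line wholly at the floor could not be called in all 3. The share of all rows with such joint calls was not counted, so these are no result about keratins as a group. By the signal-to-noise ratio, the difference of the 2 fraction means over the sum of their SDs with thresholds of 1 and -1, 0 of 27 keratins passed. Of all tested rows 118 lay above 1 and 95 below -1, together 1.06%, so that 0 of 27 is no result about keratins. The ratio of the keratins ran from -0.61 (KRT20) to 0.98 (KRT23). KRT23 was 107 and 115 on the CD133+ arrays and 113 and 144 on the CD133- arrays in KATO-III, where its change of -0.20 (SE 0.183, adjusted p = 0.445) did not pass the test. Its ratio passed 1 when KATO-III CD133+ replicate 1, CD133+ replicate 2 or CD133- replicate 2 was left out (1.28, 1.19 and 1.23).

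Of the remaining tested keratins, 11 in all with those near the floor above, each had a mean under 200 in every population. In no line did KRT6C, KRT24, KRT31, KRT37, KRT73 and KRT83 differ between fractions, which was also the case for KRT6B, KRT8 and KRT19. KRT24, a squamous keratin, ranged from -1.63 to 51.1 and KRT37, a hair keratin, from 27 to 57.8. KRT31 and KRT83, both of the hair shaft, reached 67.9 and 71.6, and KRT73, of the inner root sheath, 47. KRT6C was above the floor only on the SNU-601 CD133- arrays (42.1 and 83.9, against 20.1 and 4.78 in CD133+ cells, adjusted p = 0.0507). Values at the floor have no order.

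Genes that act with keratins were read from 4 lists, and their counts stand beside the shares of all tested rows that rose and fell, which were 18.7% and 20.6% in KATO-III, 14.6% and 14.0% in SNU-216 and 8.59% and 7.78% in SNU-601. Of 11 tested keratin linkers, which join filaments to desmosomes and to each other, 3 rose and 6 fell in KATO-III CD133+ cells, 3 rose and 4 fell in SNU-216, and 0 rose and 4 fell in SNU-601. Their median changes were -0.57, -0.18 and -0.04, where all tested rows had 0.00 in each line. JUP, the plakoglobin of desmosomes and adherens junctions, was 1774 and 1736 on the CD133+ arrays and 2642 and 2639 on the CD133- arrays in KATO-III, 4160.1 and 4399 on the CD133+ arrays and 4822 and 4863 on the CD133- arrays in SNU-216 and 3909 and 3823 on the CD133+ arrays and 4852 and 4886 on the CD133- arrays in SNU-601. It fell in every line, by 0.59, 0.18 and 0.33 on the log2 scale (adjusted p = 7.68e-06, 0.00826 and 0.000983). DSP, the desmoplakin that anchors keratin filaments, fell in KATO-III (-0.99, adjusted p = 0.000462) and SNU-601 (-0.51, 0.0346) and had -0.21 in SNU-216 (0.321). PKP2, of the same list, rose in KATO-III (0.53, 0.000237) and SNU-216 (0.52, 0.000476) and had 0.13 in SNU-601 (0.232). PKP3 rose in KATO-III (0.39, 0.0378), fell in SNU-216 (-0.53, 0.0134) and had -0.22 in SNU-601 (0.311). TCHP, which binds keratin filaments, rose in KATO-III (0.45, 0.00475) and SNU-216 (0.32, 0.0306) and had 0.23 in SNU-601 (0.137). Of 16 tested genes of squamous differentiation, 1 rose and 5 fell in KATO-III (18.7% and 20.6% of all rows), 1 rose and 3 fell in SNU-216 (14.6% and 14.0%), and 0 rose and 5 fell in SNU-601 (8.59% and 7.78%), with medians of -0.29, 0.00 and -0.24. SPRR1A, a cornified envelope precursor, fell in all 3 lines (-0.90, -0.48 and -0.84; adjusted p = 0.000462, 0.0191 and 0.00256), also in SNU-216, where KRT13, KRT16 and KRT17 rose. The gene of this list that rose in SNU-216 was KLK7 (0.67, adjusted p = 8.9e-05), and SPRR1B had 0.27 there (0.351). In KATO-III the gene that rose was SFN (0.57, 3.19e-05). The genes of these lists were not refitted with arrays left out.

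Of 13 tested transcription factors known to act on keratin genes, 2 rose and 6 fell in KATO-III CD133+ cells (18.7% and 20.6% of all rows), 2 rose and 4 fell in SNU-216 (14.6% and 14.0%), and 1 rose and 3 fell in SNU-601 (8.59% and 7.78%). Their median changes were -0.06, -0.13 and -0.18. CDX2, the intestinal factor, was 1223 and 1306 on the CD133+ arrays and 1758 and 1824 on the CD133- arrays in KATO-III and 1992 and 2249 on the CD133+ arrays and 3168 and 2822 on the CD133- arrays in SNU-601, and it fell in both (-0.50 and -0.50, adjusted p = 0.0037 and 0.0106). KRT20, an intestinal differentiation keratin, also fell in KATO-III, and in SNU-601 it was under the floor on 3 of 4 arrays. A link between CDX2 and KRT20 was not tested. ELF3 fell in KATO-III, SNU-216 and SNU-601 (-0.91, -0.42 and -0.28, adjusted p = 1.68e-05, 0.00188 and 0.0269). The factors that rose in KATO-III were KLF4 (0.43, 0.0282) and KLF5 (1.55, 0.00374). Of 11 tested genes of other intermediate filaments, 2 rose and 2 fell in KATO-III, 0 rose and 2 fell in SNU-216, and 1 rose and 0 fell in SNU-601, against the same shares of all rows, with medians of 0.00, -0.05 and 0.09. VIM, the mesenchymal vimentin, rose in KATO-III CD133+ cells (0.43, adjusted p = 0.00567). It had -0.07 in SNU-216 (0.682) and 0.09 in SNU-601 (0.606).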

How the data were processed

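Human HT-12 v3 BeadChips were hybridised with amplified RNA of sorted cells. The authors processed the scans with BeadStudio (version not given in the sources used here) and quantile-normalized them. The deposited values are linear intensities with 1 row per symbol, and 32.1% of them are at or below 0, as after background subtraction. The sources do not say how several probes were merged into 1 row. The table has 34688 rows, and 93 were empty. Intensities under 32.7 were set to it and log2 was taken, as the values were linear and not log2 as first planned. Rows above it on at least 2 arrays were fitted with limma 3.58.1 (R 4.3.3; lmFit, eBayes with trend) as 6 population means for the contrasts in a line, between lines and of the interaction, and with line and fraction as terms over all lines. A Benjamini-Hochberg adjusted p under 0.05 was a call. The code was tested on simulated data. Groups follow the array labels. A further cell type marker is not reported here.

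Values on each array are given for keratins with a mean over 1000 in a population, or over 200 and called, and for those near the floor where a call is described. The keratins, classes and lists were chosen with earlier results of these data known. Alternatives covered the floor, an offset, the filter, the normalization, the trend, the replicate block, and each array left out. The number of arrays limits the precision.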

Additional observations from a re-analysis of the deposited data

Results flagged for a closer look

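The change between the CD133 fractions differed between lines for 15 keratins, by the limma F-test of the interaction with Benjamini-Hochberg adjustment over 20147 rows. For KRT4, KRT6A, KRT14, KRT16, KRT20, KRT34 and KRT75, at least 1 line had no array above the floor and so a change of 0.00 by construction. For these the test cannot tell an unlike change from a lack of signal in that line. The adjusted p-values of the keratins called in opposite directions were KRT13 1.11e-08, KRT17 1.11e-08, KRT80 1.03e-05 and KRT86 1.21e-05. Those of keratins that fell in KATO-III CD133+ cells and rose in no line were KRT4 1.36e-05, KRT20 3.09e-05, KRT15 0.0012, KRT10 0.0171 and KRT6A 0.03. For those with a rise in at least 1 line and no fall they were KRT75 0.0127, KRT16 0.000283, KRT23 0.0012, KRT7 0.0215 and KRT14 0.00245, and KRT34, which fell in SNU-216 alone, had 0.00231. KRT6A and KRT7 lost this call in 7 of 12 fits that left out 1 array (adjusted p = 0.05 to 0.0799 and 0.053 to 0.0812), and KRT10 lost it in 2 (0.0751 to 0.0756). With an offset of 100 in place of the floor 12 of the 15 were called, without KRT14 (0.0899), KRT34 (0.153) and KRT75 (0.208), and KRT34 was also lost with a floor of 100 (0.188). KRT6A was lost with a floor of 16 (0.172), and without a filter on dim rows KRT6A, KRT7 and KRT10 were (0.0969, 0.083 and 0.0607). The 2 arrays of a population set the error of each test, and outlying arrays could not be looked for in groups of 2.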

How the results depend on the processing

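With rows kept only where all 12 arrays lay above the floor, 11 keratins were tested. Then 0 rose and 6 fell in KATO-III CD133+ cells (1 and 10 with the reported setting), 0 fell in SNU-601 (1), and 8 differed between lines in their CD133 change (15). The line pairs SNU-216 and KATO-III, SNU-601 and KATO-III, and SNU-216 and SNU-601 then differed in 7, 9 and 8 keratins (18, 19 and 16), all with fewer genes tested. Over all lines that filter gave 1 keratin, KRT23 (log2 0.85, adjusted p = 0.048). A floor of 100 left 0 keratins that rose in KATO-III, because KRT75 reached 82.6 at most and was no longer tested. That floor left 2 that fell in SNU-601, and 2 fell there without a mean-variance trend. The cause of the SNU-601 counts was not tested.

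Leaving out 1 array at a time gave 1 to 1 rises and 8 to 10 falls in KATO-III, 4 to 6 and 2 to 4 in SNU-216, and 4 to 7 and 0 to 3 in SNU-601. It gave 0 to 0 calls over all lines, 13 to 16 for the difference between lines, 15 to 18, 17 to 19 and 14 to 18 for the line pairs in the order above, and 0 to 1 keratins past a signal-to-noise ratio of 1. Over all lines, averaging the 2 arrays of a population first left 0 calls among all 20147 rows and a lowest keratin p of 0.796, adjusted, and a random block for the population gave 0.328. For 95 gene-level results, 1035 of 1140 values with 1 array left out and 754 of 795 under other settings kept direction and call, 105 and 41 lost the call, and 0 reversed. In 4 of the 41, all with a floor of 100, the change became 0.00.

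Replicate numbers did not pair the arrays (correlations of deviations from -0.0116 to 0.0276). With the replicate number as a block, 1 keratin rose and 9 fell in KATO-III, 5 and 4 in SNU-216, 5 and 1 in SNU-601, and 0 over all lines. The block left 15 differing in their CD133 change and 18, 19 and 16 in the line pairs. KRT81 in SNU-216 (adjusted p = 0.0577) and KRT9 in KATO-III (0.0651) lost their calls under it. Precision is limited by 2 arrays a population and, for keratins near 32.7, by background.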

Other observations

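Some rows carry keratin pseudogene symbols and were not counted among the keratins. The row of KRT17P3, a pseudogene of KRT17, was 57.5 and 64.9 on the CD133+ and 219.9 and 154 on the CD133- arrays of KATO-III, 154 and 167 and 136 and 85.2 in SNU-216, and 975 and 899.5 and 774 and 891 in SNU-601. Its change in KATO-III was -1.59 (limma adjusted p = 0.000603), the direction of KRT17, and its changes of 0.57 and 0.17 in SNU-216 and SNU-601 did not pass the test (adjusted p = 0.101 and 0.734). The row of KRT8P9, a pseudogene of KRT8, was 623 and 614 on the CD133+ and 314 and 229.5 on the CD133- arrays of KATO-III, 506 and 394 and 385 and 289.6 in SNU-216, and 707 and 578 and 693 and 737 in SNU-601. It rose in KATO-III CD133+ cells (1.20, adjusted p = 0.00108), where the KRT8 row did not differ between fractions (-0.02). Whether these rows measured the pseudogene or its parent was not tested.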
